A study of Mus musculus with 2 samples.

Results

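The genes described are 10 members of the Notch pathway: the receptors Notch1, Notch2 and Notch3, the ligands Dll1, Dll3, Jag1 and Jag2, the DNA-binding partner Rbpj, and the target genes Hes1 and Hes5. They were chosen by name, as the symbol in front of the transcript number, out of 45578 genes in the table, and all 10 were found, with 44 of its 109463 transcripts. Ribosome-protected fragments, the stretches of mRNA that ribosomes shield from nuclease, were counted on polysomes from whole brains at postnatal day 5. The 2 libraries are biological replicates of 1 group of control mice, with the genotype Smn+/-; SMN2tg/0 on the FVB background. Both animals therefore carry 1 disrupted Smn allele and the human SMN2 transgene, and no other genotype, age or treatment was compared.

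Notch signalling passes information between touching cells. A ligand of the Delta or Jagged family on one cell binds a Notch receptor on its neighbour, the receptor is cut by an ADAM protease and then by gamma-secretase, and the freed intracellular part enters the nucleus. There it joins RBPJ on DNA and switches on genes of the Hes and Hey families, which encode repressors of neuronal differentiation. In the developing brain the pathway is known for keeping radial glia and other progenitors undifferentiated, and for its roles in glia and in blood vessels.

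The deposited table held 1866831 footprints in replicate 1 and 5261878 in replicate 2. Levels are given as CPM, the count scaled to the library total. With 3 counts as the floor, a gene without footprints could still have stood at 1.61 CPM in the first library or at 0.570 CPM in the second. Of the marker lists for neurons, radial glia and astrocytes, endothelium and mural cells of vessels, every gene had footprints in both libraries. Of 3 liver markers, Alb and Apoa2 had 0 footprints and Serpina1a had 0 and 2. The muscle marker Ckm had 3 and 4 footprints, Myh8 had 2 and 30, and Acta1, whose sequence resembles that of the other actins, had 140 and 264. Smn1, the disrupted gene, had a level of 43.1 ± 7.11 CPM (SD, n = 2). Intervals are exact Poisson 95% intervals and, like the floors, cover counting error only, since PCR copies are not independent molecules.

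Because RBPJ acts through a short DNA word, the starts of these genes were searched for its core, GTGGGAA, on both strands (TTCCCAC on the other). The windows were 300 bases long, from 250 before to 50 after each annotated start, taken from RefSeq on GRCm38.p6. Of the 10 genes, 9 had a window. Hes1, the other target gene, had none and was not searched, so nothing is known here of the word at its start. Hes5 was the only one of these 9 with a match, and it held the word once in each orientation. The 29-base stretches around its matches are shown because Hes5 also had the highest footprint density of the 10 genes, with the core in capitals.

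Hes5, distal (chr4:154960686-154960714, + strand, GRCm38.p6): gggcgagcgcgTTCCCACagcccggacat

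Hes5, proximal (chr4:154960829-154960857, + strand, GRCm38.p6): ggccgccgagtGTGGGAAcggccgcggcg

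Their cores lay at -226 to -220 and at -83 to -77 from the annotated start. At least 1 match was present in 6.38% of the 32851 windows of this length, at least 2 in 0.256%, and both orientations in 0.10%. Among 41 other pathway genes with a window, 6 had a match, and 1 of them, the target gene Hey2, also held both orientations. Hey2 is shown for comparison, because its footprints were sparse.

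Hey2, distal (chr10:30842973-30843001, - strand, GRCm38.p6): gcgcggtggcaTTCCCACgcctctgccaa

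Hey2, at the start (chr10:30842770-30842798, - strand, GRCm38.p6): tgggctgcagcGTGGGAAagaacctccag

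A match is a description of these letters and not a measured binding site. Hey2 had 9 footprints in replicate 1 and 34 in replicate 2, and its footprint density, defined further on, was 5.53 ± 1.14 (SD, n = 2), against 70.2 ± 22.5 for Hes5. Hey2 was chosen for this contrast after its values were seen, so nothing about the word follows from it.

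All 10 genes were on polysomes in both libraries, and together they took 672 footprints in replicate 1 and 1729 in replicate 2. That was 0.0360% of the first library and 0.0329% of the second, or 0.0344% ± 0.00222 (SD, n = 2). Each of the 10 passed the minimum mean count of 10 that defined the 16427 tested genes. The counts per gene ranged from 27 for Jag1 to 126 for Notch3 in replicate 1, and from 73 for Dll3 to 314 for Notch1 in replicate 2.

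The receptors, large proteins that span the membrane, have similar coding lengths and held similar numbers of footprints. Notch1 had 115 footprints, or 61.6 CPM (interval 50.9 to 73.9), in replicate 1 and 314, or 59.7 CPM (53.3 to 66.7), in replicate 2. Notch2 had 102 footprints, or 54.6 CPM (44.6 to 66.3), and 277, or 52.6 CPM (46.6 to 59.2). Both receptors were thus at nearly the same level in the 2 animals. Notch3, known for its role in the mural cells of blood vessels and also made by neural progenitors, had 126 footprints, or 67.5 CPM (56.2 to 80.4), in replicate 1 and 248, or 47.1 CPM (41.4 to 53.4), in replicate 2. Its own intervals did not overlap, and per length of coding sequence it was the highest of the 3 in replicate 1 and the lowest in replicate 2. Notch3 accounted for 36.7% of the receptor footprints in replicate 1 and 29.6% in replicate 2, while Notch1 accounted for 33.5% and 37.4%.

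The ligands had fewer footprints per gene. Dll1, a Delta ligand that activates Notch on neighbouring cells, had 28 footprints, or 15.0 CPM (9.97 to 21.7), in replicate 1 and 89, or 16.9 CPM (13.6 to 20.8), in replicate 2. Dll3, a divergent Delta protein known to act inside the cell rather than as an activating ligand, had 29 footprints, or 15.5 CPM (10.4 to 22.3), and 73, or 13.9 CPM (10.9 to 17.4). Jag1, a Jagged ligand, had 27 footprints, or 14.5 CPM (9.53 to 21.0), and 82, or 15.6 CPM (12.4 to 19.3). In each of these 3 the replicate intervals overlapped. Jag2, the other Jagged ligand, had 49 footprints, or 26.2 CPM (19.4 to 34.7), and 137, or 26.04 CPM (21.9 to 30.8), the closest pair of CPM values among the 10 genes.

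Rbpj, the protein through which Notch reaches DNA, had 72 footprints, or 38.6 CPM (30.2 to 48.6), in replicate 1 and 273, or 51.9 CPM (45.9 to 58.4), in replicate 2. Its level was thus higher in the second library, with intervals that overlapped. Hes1, a repressor of the basic helix-loop-helix class, had 43 footprints, or 23.03 CPM (16.7 to 31.0), and 92, or 17.5 CPM (14.1 to 21.4). Hes5, its close relative and a classical Notch target in neural progenitors, had 81 footprints, or 43.4 CPM (34.5 to 53.9), and 144, or 27.4 CPM (23.1 to 32.2). Both targets were lower in replicate 2, and the intervals were separate for Hes5 and overlapping for Hes1.

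**Figure D1:**
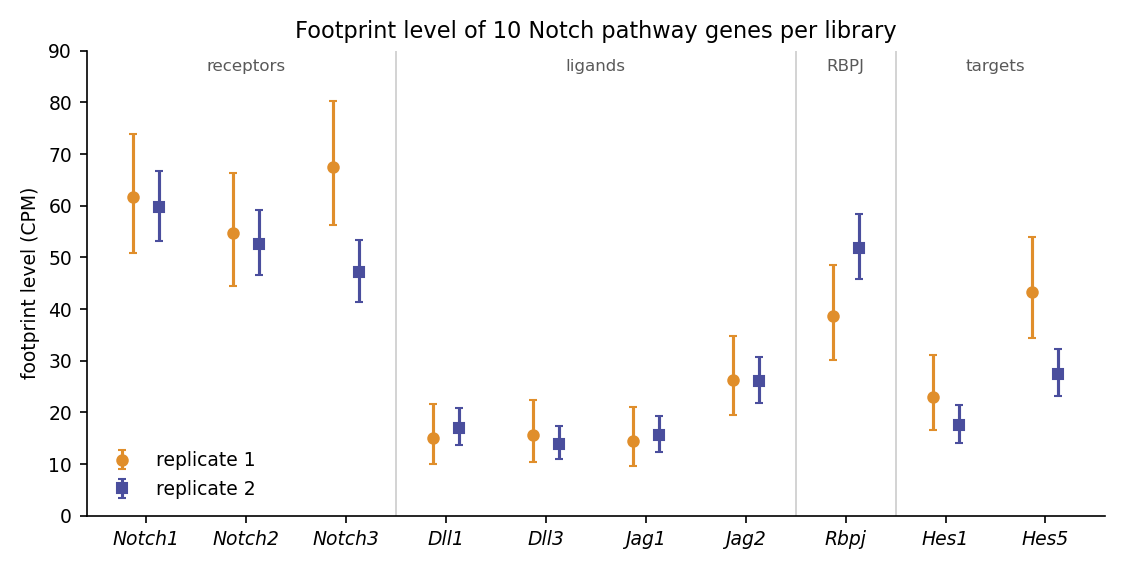
Footprint level in CPM (vertical axis, linear) for each of the 10 genes in replicate 1 (circles) and replicate 2 (squares), with exact Poisson 95% intervals. The intervals of the replicates are separate for Notch3 (67.5 against 47.1 CPM) and Hes5 (43.4 against 27.4 CPM) and overlap for the other 8 genes.

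Raw levels favour long genes, so genes were compared per length of coding sequence. Footprint density is the CPM divided by the longest annotated coding sequence of the gene in kilobases. The counts cover whole transcripts, so footprints outside the coding sequence are included. The median density of the 13349 tested genes with a coding sequence was 23.5, and the median of the 10 genes was 8.11. The receptors have coding sequences of 2532 codons (Notch1), 2474 (Notch2) and 2319 (Notch3), against a median of 471 over the tested coding genes.

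On this scale Hes5 came first, with a density of 86.1 in replicate 1 and 54.3 in replicate 2, or 70.2 ± 22.5 (SD, n = 2). Its coding sequence of 168 codons is the shortest of the 10, and over both libraries there was 1 footprint for every 0.747 codons. Rbpj followed with 24.4 and 32.8, or 28.6 ± 5.95, and Hes1 with 27.1 and 20.6, or 23.9 ± 4.62. Hes5 lay above Rbpj in both libraries, while Rbpj and Hes1 changed places between them. Hes5 was 3.17 times as dense as Hes1 in replicate 1 and 2.64 times in replicate 2.

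Receptors and ligands formed a low, narrow group. Dll3 had a density of 8.36 ± 0.668 (SD, n = 2), Notch3 8.24 ± 2.07, Notch1 7.98 ± 0.179, Dll1 7.36 ± 0.624, Notch2 7.23 ± 0.190 and Jag2 6.98 ± 0.0399. Every one of these 6 was below Hes1 in both libraries, and the counting intervals of Hes1 and Dll3 were separate in each. Within the group the replicate values overlapped for Dll3 and Notch3, for Notch3 and Notch1, and for Dll1 and Notch2. Notch1 lay above Dll1, and Notch2 above Jag2, in both libraries, but their counting intervals overlapped in each.

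Jag1 was the lowest of the 10, with a density of 3.95 in replicate 1 and 4.26 in replicate 2, or 4.11 ± 0.217 (SD, n = 2), which is 1 footprint for every 11.2 codons over both libraries. Its relative Jag2 was 1.77 times as dense in replicate 1 and 1.63 times in replicate 2. The counting intervals of Jag2 and Jag1 overlapped in replicate 1 and were separate in replicate 2.

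**Figure D2:**
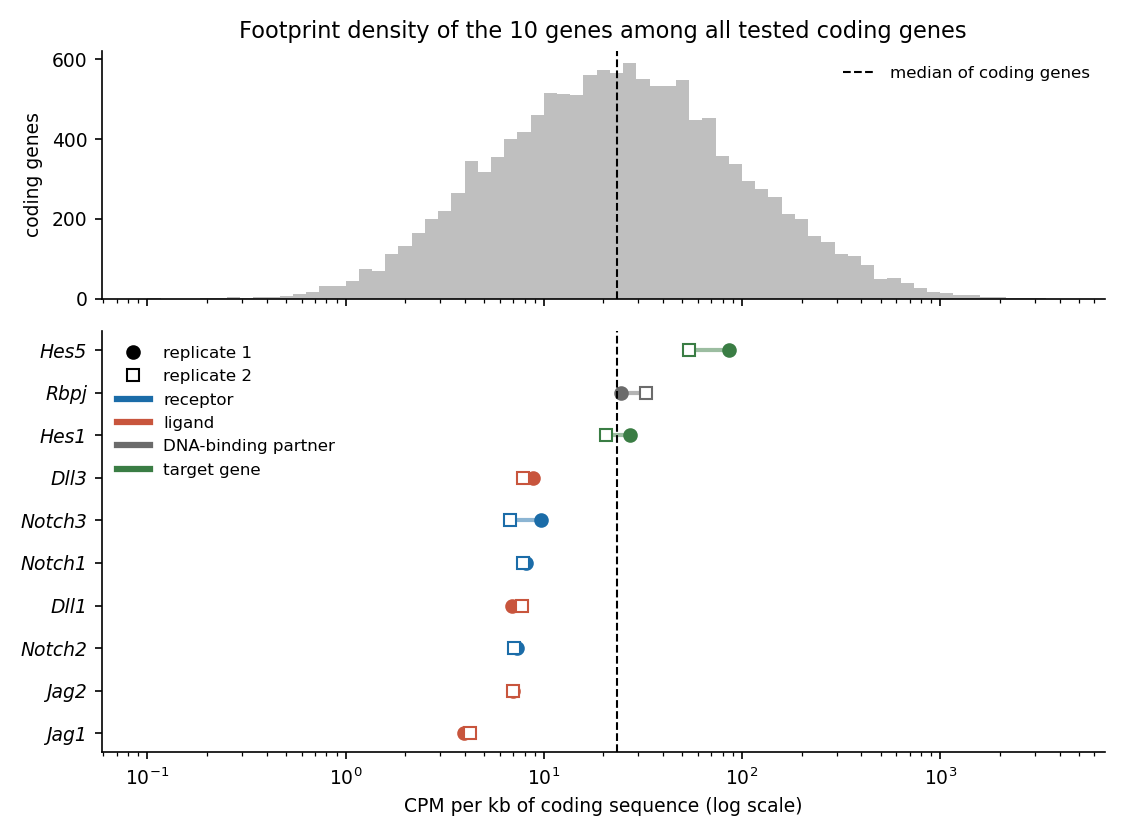
The upper panel counts the 13349 tested coding genes by mean footprint density (CPM per kilobase of coding sequence, log axis), and the lower panel gives each of the 10 genes in replicate 1 (filled circles) and replicate 2 (open squares) on the same axis. Hes5 lies above the median of 23.5 (dashed line) in both libraries, Rbpj and Hes1 lie near it, and the receptors and ligands lie below it.

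Placed among the tested coding genes, Jag1 lay at percentile 11 and Jag2 at 19.9. Notch2, Dll1, Notch1, Notch3 and Dll3 lay between percentiles 20.7 and 23.8. Hes1 stood at percentile 50.4, Rbpj at 55.7 and Hes5 at 78.4. Thus 3 of the 10 genes, Hes5, Rbpj and Hes1, were above the median density. This was 2 of 10 in replicate 2 alone, with protein coding transcripts only, with the highest transcript of each gene, with coding lengths weighted by transcript counts and with transcript lengths. With a minimum mean count of 50 for the comparison genes it was 1 of 10, Hes5.

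Summed by role, the 3 receptors had a density of 25.2 in replicate 1 and 21.7 in replicate 2, and the 4 ligands 26.7 and 26.9. The ratio of receptors to ligands was 0.942 and 0.807, or 0.875 ± 0.0953 (SD, n = 2). It moved to 1.01 with protein coding transcripts only and to 1.00 with the highest transcript of each gene, so neither role can be placed above the other. The 2 target genes together were 4.5 times as dense as the 3 receptors in replicate 1 and 3.45 times in replicate 2. This gap was smaller per kilobase of whole transcript, where Hes5 had 27.8 and Hes1 13.8. On that scale Notch3 had 7.12, Notch1 6.39 and Notch2 5.11.

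The place of Rbpj depended on which length and which transcripts were used. Of its coding transcripts, 3 carry a 3' untranslated region of 3742 nucleotides behind a coding sequence of up to 1581. Per kilobase of the transcript with the longest coding sequence, Hes5 had 27.8, Hes1 13.8 and Rbpj 8.28. With the highest transcript of each gene alone, Rbpj had 15.7 per kilobase of the gene's longest coding sequence, and Notch3 had 16.0. The transcript counted there, Rbpj-002, has a coding sequence of 1464 nucleotides and not 1581. The value of Rbpj is therefore too low by its own length, and its order against Notch3 is not settled. Hes5 stayed first and Jag1 last under each alternative tried for density, including each library on its own.

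Annotated isoforms differed in number from 1 for Notch3 and Jag2 to 11 for Notch1 and 12 for Rbpj. For Notch3 and Jag2 the gene value is therefore that of a single coding transcript. Notch1-001, the full-length receptor, held 96 of 115 footprints in replicate 1 and 261 of 314 in replicate 2, or 83.3% ± 0.253 (SD, n = 2). Notch2-001 held 84 of 102 and 229 of 277, or 82.5% ± 0.225, and the remainder was on the retained-intron transcript Notch2-002. The split between full-length and other transcripts was nearly the same in both animals for these receptors.

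Rbpj footprints were spread over 6 protein coding transcripts. The most covered, Rbpj-002, held 27 of 72 footprints in replicate 1 and 58 of 273 in replicate 2, or 29.4% ± 11.5 (SD, n = 2). Rbpj-001, Rbpj-004, Rbpj-007 and Rbpj-012 held between 12.3% and 14.6% each on average, and the short Rbpj-005 held 3.95%. Rbpj-002 held the larger share in replicate 1, at 37.5% against 21.2% in replicate 2, and the other coding transcripts named here the smaller. The log2 ratio of replicate 2 over replicate 1 was 0.30 for the summed gene and -0.44 for Rbpj-002 alone. The second ratio was scaled to the totals of the highest transcript of each gene, so the scales differ.

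A processed pseudogene of Rbpj, Rbpsuh-rs3, had 11 footprints in the first library and 45 in the second, a level of 7.22 ± 1.88 CPM (SD, n = 2). Fragments of Rbpj can match it, so the level of Rbpj is uncertain to that extent. With this pseudogene and Rbpsuh-ps1 added, the level of Rbpj was 52.6 CPM in place of 45.2. Rbpjl, the paralogue known from pancreas, had 0 and 3 footprints.

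On transcripts not annotated as protein coding, the share of footprints ran from 0% for Notch3 and Jag2 to 37.3% ± 9.72 for Hes1 (SD, n = 2). Dll1 had 35.2% ± 4.28 and Dll3 33.7% ± 8.58. Hes5 had 25.2% ± 0.709, all on the processed transcript Hes5-003, whose 350 nucleotides carried 20 footprints in replicate 1 and 37 in replicate 2. The median share of the 10 genes was 17.0%, against 8.95% over the tested coding genes, and 8 of the 10 were above that median. Such transcripts share exons with the coding ones, and how a fragment common to several transcripts was placed is not given in the sources used here, so these shares describe the annotation as much as the ribosomes.

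**Figure D3:**
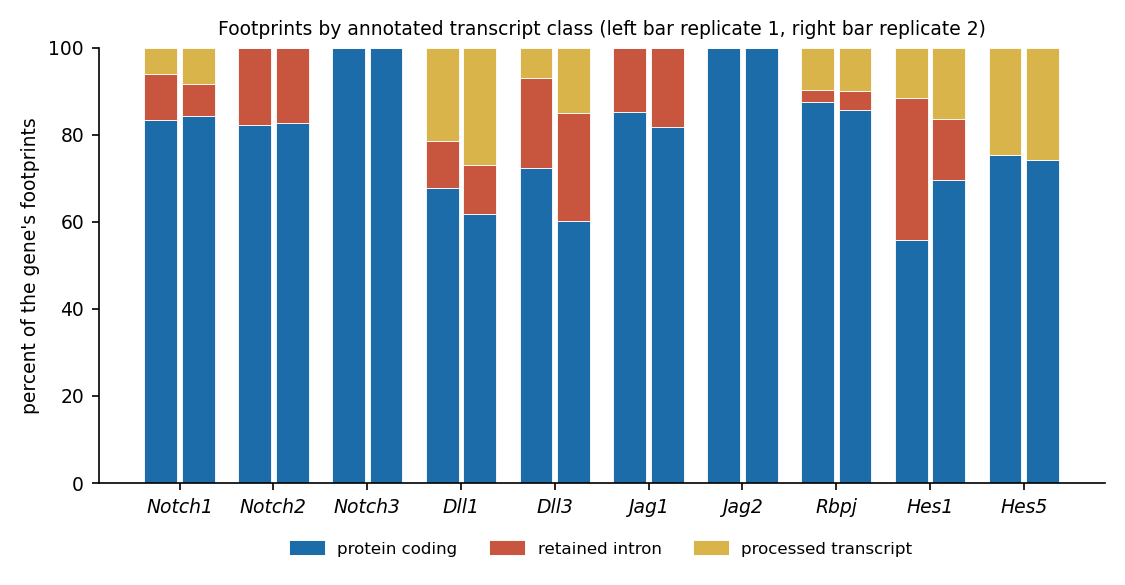
Percent of each gene's footprints (vertical axis, 0 to 100) on protein coding, retained intron and processed transcripts, with replicate 1 as the left bar and replicate 2 as the right. Notch3 and Jag2 are wholly on 1 coding transcript, while in Hes1 the protein coding share is 55.8% in replicate 1 and 69.6% in replicate 2.

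The libraries were then compared gene by gene, to see how far 2 control brains gave the same value. The log2 ratio is replicate 2 over replicate 1 after TMM scaling (trimmed mean of M values), with a prior of 0.5 CPM. The two-sided exact binomial test, adjusted by Benjamini-Hochberg over all 16427 genes, compares these libraries and covers counting noise alone. It called 2 of the 10 genes, Notch3 and Hes5, where 17.4% of all tested genes were called, so the number called was near the background. Both were lower in replicate 2, the direction of 11.5% of all tested genes, and no member was called higher, where the background was 5.95%.

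Notch3 fell by 0.64 on the log2 scale from replicate 1 to replicate 2 (adjusted p of the exact binomial test 0.000938). Hes5 fell by 0.78 (adjusted p of the exact binomial test 0.00166). By edgeR's exact test, whose common dispersion was estimated from the same libraries, 0.067% of all genes were called and neither of these was and the adjusted p was 1 for both; in the other settings the adjusted p lay between 0.000156 and 0.0245. Hes1 had a log2 ratio of -0.51 and Rbpj of 0.30, and the exact binomial test gave them adjusted p values of 0.197 and 0.319, so neither passed. With protein coding transcripts only, the log2 ratio of Hes1 was -0.17. The remaining 6 had log2 ratios from -0.28 for Dll3 to 0.05 for Dll1. Their adjusted p values in the exact binomial test ran from 0.546 to 1.

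The median log2 ratio of the 10 genes was -0.17, against 0.01 over all tested genes, and 8 of the 10 were below 0, as were 49.5% of all tested genes. TMM moved the ratios down by 0.13 from those of the library totals before the prior was added, and by slightly less for sparse genes after it. With library totals 7 of the 10 were below 0, against a median of 0.13 over all tested genes, and Jag1 changed sign. Ratios also depended on density across the table: the median was 0.21 in the lowest of 10 equal classes of coding genes by density and -0.27 in the highest. The class that held Notch3 had a median of 0.09 and the class that held Hes5 a median of -0.05, so both genes lay below genes of like density.

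Marker lists of several cell types differed between the libraries as well, in both directions. Of all tested genes, 11.5% were called lower and 5.95% higher. The 9 radial glia and astrocyte markers summed to 2761 CPM in the first library and 2465 CPM in the second, with 4 called lower and 0 higher. The 5 neuron markers summed to 4036 and 3323 CPM, with 3 called lower and 0 higher. The median log2 ratio was -0.27 for the radial glia and astrocyte list and -0.20 for the neuron list. Every neuron marker and most of the radial glia and astrocyte markers lay in the highest density class, whose median was -0.27. The 8 mural cell markers summed to 237 and 209 CPM, with 3 of 6 tested called lower and 0 higher. Those 3 were Kcnj8, with only 18 and 22 footprints, Cspg4, and Acta2, which like Acta1 resembles the other actins in sequence. The defining mural genes Pdgfrb and Rgs5 had 81 and 238 and 129 and 342 footprints, at log2 ratios of -0.07 and -0.21, and were not called. Abcc9, at 0.27, was not called either. Tagln, with 5.36 and 1.71 CPM, and Myh11, with 1.07 and 2.66 CPM, were below the minimum for the test. None of the 8 was at 0. The 6 endothelial markers had a median log2 ratio of 0.18, with 1 called lower and 0 higher, and of the 4 meningeal markers 2 were called lower and 1 higher. Other lists summed higher in replicate 2 on library totals, the scale of all these sums. On that scale the median log2 ratio of all tested genes was 0.13, while the calls followed TMM scaling. The 5 neuronal progenitor markers went from 631 to 704 CPM, with 1 of 4 tested called higher and 0 lower. Dcx, with 553 and 592 CPM, made up most of that sum. After TMM the log2 ratio was -0.03 for Dcx, and the median of the list was 0.24. The 5 oligodendrocyte lineage markers went from 784 to 961 CPM, with 2 called higher and 2 lower. The 4 microglia markers went from 169 to 194 CPM, with 1 called higher and 0 lower. The part of these cells in the Notch3 and Hes5 differences was not tested, and in whole brain fewer cells of a type and less RNA per cell cannot be told apart.

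**Figure D4:**
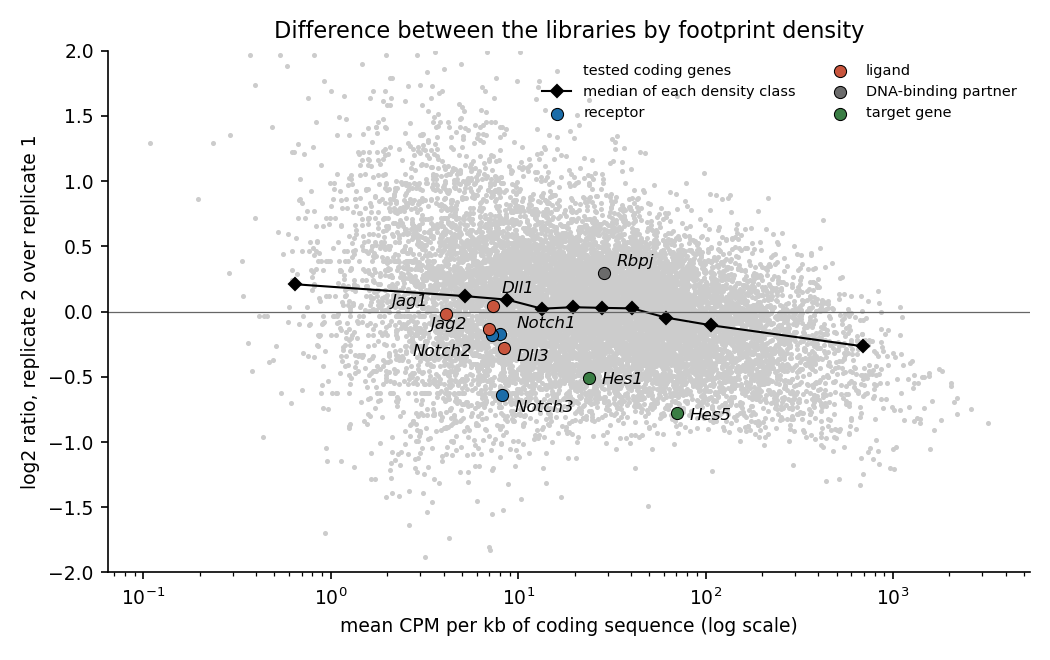
Log2 ratio of replicate 2 over replicate 1 (vertical axis) against mean footprint density (log axis) for the tested coding genes (grey), with the median of each of the 10 density classes (black diamonds) and the 10 genes coloured by role. Hes5 at -0.78, Notch3 at -0.64 and Hes1 at -0.51 lie below the medians, Rbpj at 0.30 lies above, and 34 genes beyond the axis limits are not drawn.

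The rest of the pathway was described from a list of 52 other genes. Of these, 49 were tested, 3 were called higher and 4 lower in replicate 2 by the exact binomial test, where 5.95% and 11.5% of all tested genes were called, so the count was near the background. Their median log2 ratio was 0.03. Above the median density of coding genes lay 27 of the 52, against 3 of the 10 genes above. Many of these genes had footprints on transcripts not annotated as protein coding. Densities from protein coding transcripts alone, scaled to the total of such transcripts, are therefore also given for several genes where they move the order. On that scale the median of the coding genes was 24.4, and 25 of the 52 lay above it.

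Receptors and ligands outside the 10 were sparse when canonical. Notch4, the receptor of blood vessels, had 20 and 48 footprints and a density of 1.68 ± 0.191 (SD, n = 2), and Dll4, its vascular ligand partner, had 17 and 29 footprints and 3.55 ± 1.23. Notch4 was below Jag1 in both libraries, and Dll4 above it in replicate 1 and below it in replicate 2. Dll4 had 4.09 and 2.84 on protein coding transcripts alone, below Jag1 with 4.42 and 4.66. The non-canonical ligands Dlk1 and Dlk2 were denser, at 32.4 ± 0.0352 and 26.7 ± 5.44. Among the enzymes that add sugars to Notch, the Fringe proteins Rfng and Lfng had densities of 43.1 ± 5.79 and 36 ± 1.05. The fucosyltransferase Pofut1 had 21.4 ± 3.37. Lfng had 31.4 ± 4.53 and Rfng 29.8 ± 3.61 on protein coding transcripts alone, in the reverse order. None of these ligands or enzymes was called between the libraries.

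The 8 protease genes described, which serve to cut the receptor, all had higher mean densities than the 3 receptors. The gamma-secretase subunits Psenen and Aph1a led, at 121 ± 6.56 and 78.0 ± 5.89 (SD, n = 2). Behind them Ncstn had 53.1 ± 13.1, Adam10, the sheddase of the first cut, 52.8 ± 9.39 and Aph1b 50.2 ± 0.531, which were not separate from each other. Adam17, another ADAM protease, was lowest of the 8 at 10.2 ± 3.93, and in replicate 1 its 7.38 lay below Notch1 and Notch3. On transcripts not annotated as protein coding lay 55.5% of the footprints of Adam17 and 71.1% of those of Ncstn. On protein coding transcripts alone 7 of the 8 were above the receptors, Ncstn had 20.6 ± 7.20, and Adam17, at 5.85 ± 1.63, lay below all 3 receptors. Aph1b then had 43.2 ± 3.04 and Adam10 36.3 ± 8.94, again not separate from each other. Ncstn, the subunit that receives the substrate, rose from 43.8 in replicate 1 to 62.4 in replicate 2, with a log2 ratio of 0.38 (exact binomial test, adjusted p 0.0118). The 8 genes spanned 10.2 to 121, against 7.23 to 8.24 for the receptors described here.

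Around RBPJ, corepressors had a higher median density than coactivators, with ranges that overlapped. Ctbp1, Hdac2 and Tle3, which serve many repressors besides RBPJ, had densities of 180 ± 12.4, 134 ± 4.57 and 58.3 ± 4.45 (SD, n = 2). The histone acetyltransferases Crebbp and Ep300 had 17.5 ± 0.327 and 10.2 ± 1.55, and Maml2, of the Mastermind family that bridges Notch and RBPJ, had 3.71 ± 1.98. The median was 33.2 over 9 corepressors, which ran from 5.11 to 180, and 3.45 over 6 coactivators, which ran from 2.29 to 17.5. Ncor1 was the 1 gene of these classes called between the libraries, with a log2 ratio of 0.28 (exact binomial test, adjusted p 0.0148).

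Of 12 regulators of endocytosis and turnover, 5 were called between the libraries, against 17.4% of all tested genes, and the classes were not tested against each other. Neurl1a, Neurl1b, Numbl and Dtx4 were lower in replicate 2, at log2 ratios of -0.68, -0.36, -0.36 and -0.45, and Fbxw7, which marks the Notch intracellular domain for degradation, was higher at 0.42. Their adjusted p values in the exact binomial test ran from 0.00327 to 0.0422. Dtx3, Numbl and Dtx1 were the densest, at 101 ± 1.59, 79.0 ± 8.93 and 67.6 ± 4.07 (SD, n = 2). On protein coding transcripts alone Dtx3 stayed first at 133 ± 3.85, while Numbl and Dtx1 had 33.3 ± 3.75 and 44.7 ± 8.45, below Neurl1b with 68.7 ± 6.90. Numbl is a relative of the Notch inhibitor Numb.

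Among the other Hes and Hey genes the spread was wide. Hes6, a relative known to oppose Hes1, was the densest at 98.3 ± 11.1 (SD, n = 2), with 114 and 377 footprints, and lay above Hes1 by 3.33 times in replicate 1 and 5.15 times in replicate 2. It was 1.05 times as dense as Hes5 in replicate 1 and 1.95 times in replicate 2. Of its footprints, however, 75.3% ± 0.263 were on transcripts not annotated as protein coding. On protein coding transcripts alone Hes6 had 32.3 ± 4.44, below Hes5 with 69.5 ± 21.9 in both libraries and 1.47 and 1.85 times as dense as Hes1. Nrarp and Hey1, at 57.4 ± 5.13 and 37.9 ± 3.72, then also lay above Hes6 on average. Hey1 had 54.7 ± 5.11, between Hes5 and Rbpj on average, and Nrarp, a feedback inhibitor, had 43.4 ± 4.5. Hes2 and Hes3 had 0 footprints in both libraries, and Hes7 had 6 and 13, below the minimum for the test. No target gene in this list was called between the libraries.

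**Figure D5:**
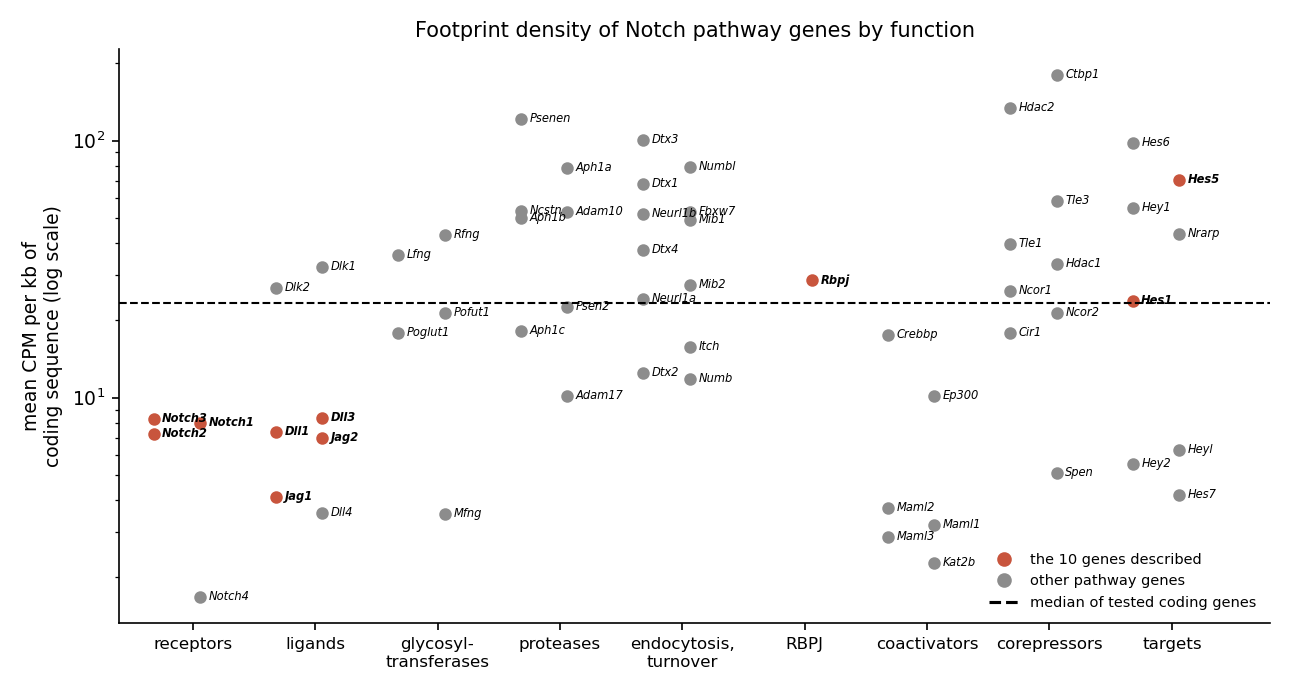
Mean footprint density (log axis) of the 10 genes (red) and the other pathway genes (grey) by function, with the median of tested coding genes at 23.5 (dashed line). The receptors and canonical ligands lie between 1.68 and 8.36, below the line, while 5 of 8 proteases and 6 of 9 corepressors lie above it; Hes2 and Hes3, at 0, are not drawn.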

How the data were processed

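Polysomal footprints of 2 control brains were analysed. Per the submitters' processing notes, Trimmomatic 0.36, Bowtie2 2.2.6, SAMtools and the build GRCm38.p4 were used, with no roles stated. The deposited table holds raw counts per annotated transcript, 1 column per replicate, and the annotated lengths. The annotation release and the treatment of strand, duplicates and fragments that match several places are not given in the sources used here. In 46 pairs of same-gene transcripts with identical lengths, 2 had equal counts in replicate 2. Where such pairs share their sequence, a fragment was thus not counted on both, but their sequences were not compared. Transcripts were summed per gene on that assumption.

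TMM factors (edgeR 4.0.16) were 0.957 and 1.04. A quasi-likelihood test needs a contrast, which 1 group lacks, so an exact binomial test (scipy 1.17.1) was used for every gene whose counts averaged at least 10, at an adjusted p of 0.05. It was tested on simulated data that held counting noise alone. That cannot show how the test behaves where animals also differ. Alternatives were library totals, DESeq2 1.42.0 size factors, other filters, priors of 5 and 0.1 CPM, transcript choices, lengths and edgeR's exact test. Removing the density trend, adding pseudogenes and using protein coding transcripts for the other pathway genes were chosen after seeing the data. Other pathway genes were named where called, or among the 3 densest of their class; Hey2, Notch4, Numb, Adam10, Adam17, Aph1b, Hes2, Hes3 and Hes7 were singled out after their values were seen. One gene planned for that list is not reported here. The members and lists were chosen with earlier results of these data known. Without matched RNA, which was not analysed here, no translational efficiency can be given.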

Additional observations from a re-analysis of the deposited data

How the results depend on the processing

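Counting noise limits the sparse genes, and the ligands had 27 to 49 footprints in replicate 1. The log2 ratio of -0.51 of Hes1, with 43 and 92 footprints, was not called. It was -0.17 with protein coding transcripts only and -0.13 with the highest transcript, each scaled to its own library totals. How fragments shared between Hes1 transcripts were placed is not given, so where the difference lay is not known. No paired analysis was possible because the 2 replicates form a single group. With the highest transcript alone, 1444 genes and 2 other pathway genes were called in place of 2861 and 7. With edgeR's exact test at the common dispersion 11 genes, 0 members and 0 other pathway genes were called; 721 genes and 0 members had an unadjusted p under 0.05, and the dispersion came from the libraries compared. With a minimum mean count of 50, 1 member lay above the median density in place of 3. The members' share was 0.0383% with protein coding transcripts only and 0.0512% with the highest transcript, each of a smaller total, in place of 0.0344%. Receptors over ligands was 1.01 and 1.00 in these settings and 0.970 per transcript length, in place of 0.875. The log2 ratio of Jag1 became 0.10 with library totals. That of Dll1 became -0.014 with the highest transcript, -0.057 with protein coding transcripts and -0.046 with the density trend removed, and that of Rbpj became -0.44 with the highest transcript. None of these genes was called in any setting. Where a cause is not given, the cause was not tested.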

Other observations

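One short transcript of Hes1 stood out when the isoforms were listed, and it was chosen after its values were seen. Hes1-003, a retained-intron transcript of 406 nucleotides, had 14 footprints in replicate 1 and 13 in replicate 2, although the second library was 2.82 times as deep. That was 7.5 CPM (exact Poisson 95% interval 4.10 to 12.6) against 2.47 CPM (1.32 to 4.22), or 32.6% and 14.1% of the gene's footprints. The coding transcript Hes1-001 had 24 and 64 footprints. The difference was not tested.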
